A study of Mus musculus with 8 samples.

Results

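The expression of 51 genes of mitosis and the spindle was followed across 4 groups of ASZ001 cells, a mouse basal cell carcinoma line. They were taken by symbol from a list of mitotic genes, by a rule that names symbols only, although the list was drawn up with earlier results of these data known, and all 51 were found among the 24909 entries of the deposited table. RNA was sequenced from 3 groups of cells with a doxycycline-inducible c-Fos vector, which received afatinib (5 µM), UO126 (10 µM) or DMSO for 6 h upon induction with doxycycline for 24 h. The fourth group carried an inducible empty vector and had doxycycline for 24 h, and its label names no vehicle, so any effect of DMSO is part of each comparison with it. Each group had 2 libraries. No clone or cell pool is named for the vectors, and the labels do not say that the libraries came from separate cultures. P-values therefore measure the spread between libraries, which may be technical and is taken as equal in all 4 groups. The labels name no wild-type ASZ001 cells, and all 4 groups share doxycycline. The study title places the experiment in an induced change from basal to squamous cell carcinoma.

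Mitosis is driven by CDK1 bound to cyclins, which are made before division and destroyed at anaphase by the anaphase-promoting complex. Polo and Aurora kinases, kinesin motors and microtubule-bundling proteins build the spindle, kinetochores tie chromosomes to it, and the spindle assembly checkpoint delays anaphase until every chromosome is attached. Many of these genes are transcribed late in the cell cycle, under the MuvB complex with B-Myb and FOXM1, through CCAAT boxes bound by NF-Y and the cell cycle genes homology region (CHR). c-Fos pairs with Jun proteins to form AP-1, a transcription factor. Afatinib blocks kinases of the EGFR family, and UO126 blocks the MEK kinases downstream of EGFR and Ras.

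Library totals were 17901974 to 23126049 estimated counts, and the 45S ribosomal RNA entry Rn45s took 1.62% to 4.08% of them. Fos, the induced gene, stood at 1107 and 1080.5 CPM with afatinib, 813 and 875 CPM with UO126, 1163 and 1120.5 CPM with DMSO, and 40.6 and 50.5 CPM in empty-vector cells (CPM, counts scaled to a common library size by edgeR's TMM method), so the vector labels held. Fos itself was lower with UO126 than with DMSO by a log2 fold change of -0.44 ± 0.080 (SE; adjusted p = 0.0015). The summed level of 6 keratinocyte markers was 16489 to 20819 CPM. The 8 fibroblast markers summed to 7.11 and 7.13 CPM with afatinib, 9.35 and 10.8 CPM with UO126, 8.27 and 9.09 CPM with DMSO, and 5.06 and 5.27 CPM in empty-vector cells, with Lum and Thy1 at 0. The 4 leukocyte markers summed to 5.41 to 9.32 CPM with Tyrobp at 0, and the 3 endothelial markers summed to 55.3 to 70.9 CPM with Kdr at 0.

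Promoter sequence was matched by symbol in RefSeq (GRCm38.p6) for 42 of the 51 genes, with 45 promoters. In the 250 bases before the start, the CHR letters TTTGAA or TTCGAA, on either strand, were found in 18 of 45 promoters (40%), against 17.1% of all 32851 promoters. Within the last 100 bases they were found in 10 promoters (22.2%), against 6.13% of all. The letters CCAAT, on either strand, were in 34 promoters (75.6%), against 33.8% of all, and at least 2 copies were in 22 (48.9%), against 10.1% of all. These matches describe the sequence only. The stretches shown are 5 runs of 120 bases upstream of the start, with CHR and CCAAT letters of either strand in capitals. Of 8 such stretches, 1 a gene for 8 of the roles below, 3 held both motifs (Cdk1, Cdc20 and Top2a, shown for that reason), 3 held CCAAT alone (Plk1, Bub1 and Cenpa), 1 held CHR letters alone (Kif2c) and 1 held neither (Anln). Kif11 and Hmmr, chosen after their values were seen, are genes whose levels differed with the inhibitors. Ect2, chosen in the same way and lower with both inhibitors, is not shown.
Cdk1, chr10:69352913-69353032, minus strand: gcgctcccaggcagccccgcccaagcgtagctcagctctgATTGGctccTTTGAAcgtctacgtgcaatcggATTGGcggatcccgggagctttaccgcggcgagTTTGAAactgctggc
Cdc20, chr4:118437344-118437463, minus strand: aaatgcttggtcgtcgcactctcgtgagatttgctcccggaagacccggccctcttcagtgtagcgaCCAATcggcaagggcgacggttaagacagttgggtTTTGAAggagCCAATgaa
Top2a, chr11:99024190-99024309, minus strand: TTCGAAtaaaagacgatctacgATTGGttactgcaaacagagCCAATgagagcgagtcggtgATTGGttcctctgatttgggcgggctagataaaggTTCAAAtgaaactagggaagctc
Kif11, chr19:37376262-37376381, plus strand: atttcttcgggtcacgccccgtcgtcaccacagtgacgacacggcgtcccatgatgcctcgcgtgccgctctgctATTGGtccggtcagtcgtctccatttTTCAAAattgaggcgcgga
Hmmr, chr11:40733438-40733557, minus strand: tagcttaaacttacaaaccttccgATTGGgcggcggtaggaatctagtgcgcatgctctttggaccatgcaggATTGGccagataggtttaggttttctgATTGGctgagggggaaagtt
The Kif11 stretch held 1 CHR match and 1 CCAAT match, and the Hmmr stretch held 3 CCAAT matches. The Cdk1 and Top2a stretches each held 2 CHR matches, and that of Cdc20 held 1. Promoters were matched for 6 of the genes found higher with both inhibitors in the tests below. In the 250 bases, 2 of these 6 held CHR letters and 5 held CCAAT. Of 18 genes with a promoter that passed no test below in the 3 comparisons with DMSO libraries, 7 held CHR letters and 14 held CCAAT. A link between motif and level was not tested.

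All 51 genes were expressed in every library, no gene differed by 2-fold between any groups, and genes of one role often moved in opposite directions. Kif11, Cenpf and Dlgap5 were higher, and Incenp lower, with each inhibitor than with DMSO under every alternative analysis. The summed level of the 51 was 9242 and 9391 CPM with afatinib, 9355 and 9036 CPM with UO126, 8794 and 8836 CPM with DMSO, and 9114 and 9047 CPM in empty-vector cells, or 0.879% to 0.939% of a library. The DMSO libraries were the lowest, and the afatinib and UO126 libraries overlapped. This sum weighs the genes with most counts most heavily. The median log2 fold change of the 51 with afatinib against DMSO was -0.0020. Per kilobase of the deposited gene length, Ube2c had the highest mean level (214 CPM per kilobase), followed by Top2a (194), Cdca3 (108) and Kif20a (108), and Kif15 the lowest (6.63). Since these are pools of cells, a change in the share of cells in mitosis and a change in RNA per cell cannot be told apart.

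**Figure D1:**
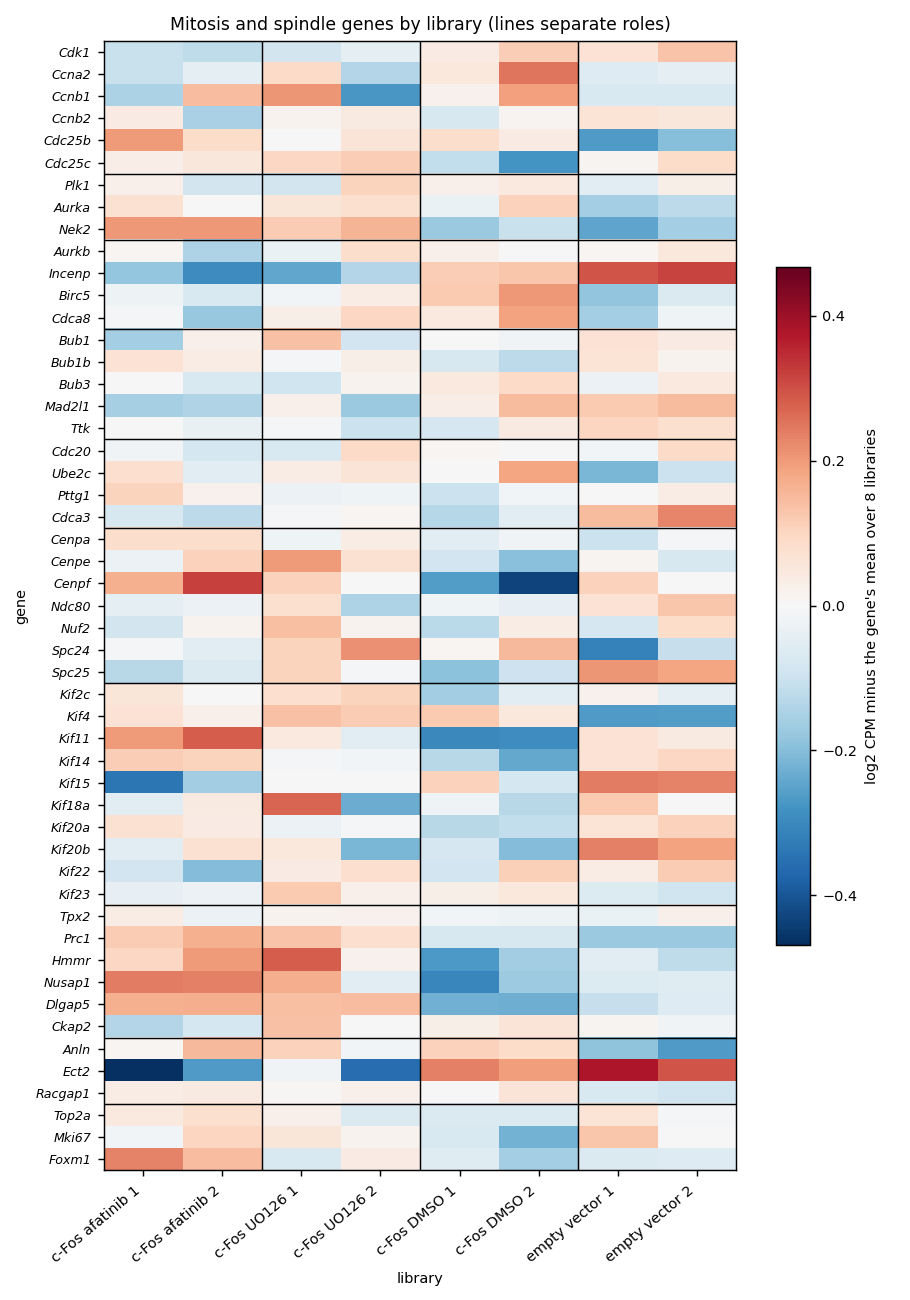
Log2 CPM of each of the 51 genes in each of the 8 libraries, minus the gene's mean over all libraries; red is above and blue below that mean, and horizontal lines separate the roles described in the text. No group is red or blue throughout: Kif11, Cenpf, Nusap1 and Dlgap5 are red with afatinib and blue with DMSO, while Ect2 and Incenp are blue with both inhibitors.

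A gene is called here when its Benjamini-Hochberg adjusted p in edgeR's quasi-likelihood test, over the 12879 genes tested, was under 0.05. All fold changes below are log2 values with their SE, from this fit. With afatinib against DMSO, 12 of the 51 genes (23.5%) were called higher, beside 21.2% of all genes, and 8 (15.7%) were called lower, beside 21.5% of all genes. The median log2 fold change of the 51 was -0.0020, against -0.00028 for all genes, and the range was -0.58 to 0.59. Only Cenpf was past 1.5-fold. Of these calls, 11 (Nek2, Cenpf, Kif11, Kif14, Prc1, Hmmr, Nusap1, Dlgap5 and Foxm1 higher, Incenp and Ect2 lower) held under all 16 alternative settings. The other 9 were lost under at least 1. The share of all genes called fell too when a library of either group compared was left out.

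With UO126 against DMSO, 10 genes (19.6%) were called higher, beside 13.9% of all genes, and 2 (3.92%), Ect2 and Incenp, were called lower, beside 14.7% of all genes. The median log2 fold change was 0.041, against 0.0021 for all genes, and the range was -0.39 to 0.40. The calls of Cenpf, Kif11, Dlgap5 and Incenp held under all alternatives. The other calls were each lost under at least 1 alternative. The share of all genes called fell too without either DMSO library.

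With DMSO, c-Fos cells against empty-vector cells had 8 genes (15.7%) called higher, beside 21.5% of all genes, and 10 (19.6%) called lower, beside 20.7% of all genes. The median log2 fold change was -0.060, against -0.0052 for all genes, and the range was -0.40 to 0.35. The calls of Cdc25b, Birc5, Kif4 and Anln (higher) and of Cenpf and Kif11 (lower) held under all alternatives. The other calls were each lost under at least 1 alternative. The share of all genes called fell too when a library of either group compared was left out. These 3 comparisons share the DMSO libraries, so a gene low in those 2 libraries would count as higher with each inhibitor and lower with c-Fos, and each comparison's values are given side by side below.

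**Figure D2:**
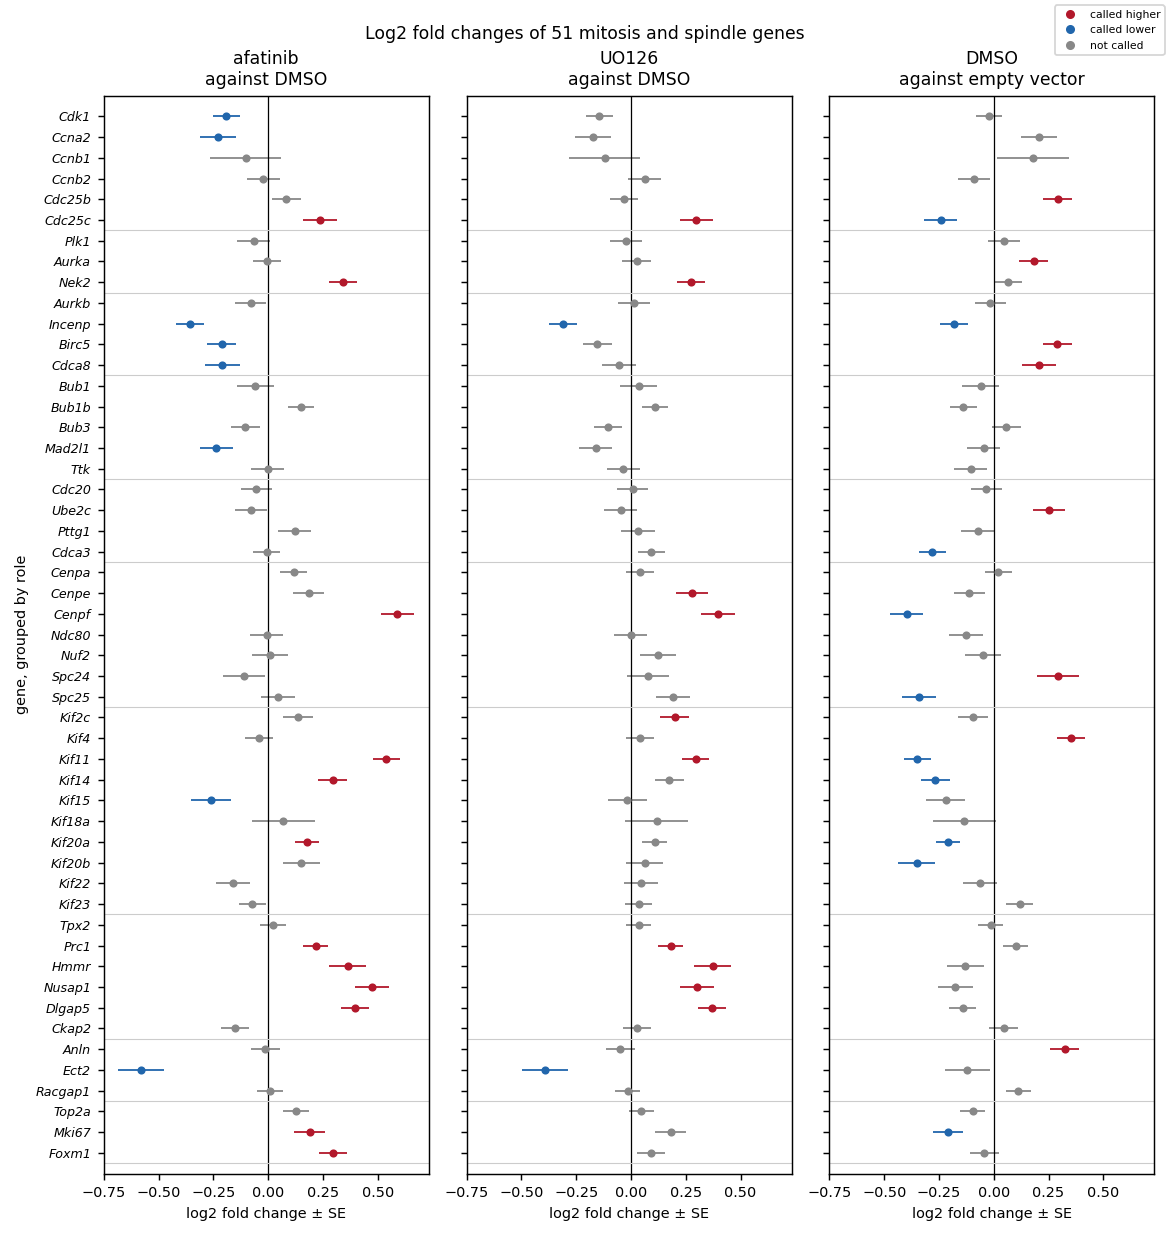
Log2 fold change (dot) and SE (bar) of each of the 51 genes in 3 comparisons, by role; red was called higher, blue called lower and grey not called. Cenpf (0.59) and Ect2 (-0.58) lie farthest from 0 with afatinib against DMSO, and the other genes lie within 0.54 of it.

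The CDK1 engine (6 genes) showed small and mixed differences. Cdk1, the kinase that starts mitosis, had 163 and 162 CPM with afatinib, 166 and 170.1 CPM with UO126, 180.5 and 191 CPM with DMSO, and 184 and 193 CPM in empty-vector cells. All 4 inhibitor libraries lay below all DMSO and empty-vector libraries. Its log2 fold change was -0.19 ± 0.061 (adjusted p = 0.022) with afatinib against DMSO and -0.21 ± 0.061 (adjusted p = 0.011) with afatinib against empty vector. Ccna2, the cyclin of S phase and early mitosis, had 275 and 286 CPM with afatinib, 314 and 268 CPM with UO126, 305 and 351 CPM with DMSO, and 283 and 287 CPM in empty-vector cells. The afatinib libraries were below the DMSO libraries, at a log2 fold change of -0.23 ± 0.082 (adjusted p = 0.039), and the UO126 libraries overlapped them. Ccnb1, the main mitotic cyclin, had 57.4 and 70.2 CPM with afatinib, 73.4 and 52.6 CPM with UO126, 64.5 and 72.6 CPM with DMSO, and 60.5 and 60.5 CPM in empty-vector cells. The DMSO libraries lay above the empty-vector libraries, every other pair of groups overlapped, and Ccnb1 was called in no comparison. Its UO126 libraries were the farthest apart. Rn45s took 1.62% of the counts in UO126 replicate 1, which had more Ccnb1, and 3.55% in replicate 2, and its part in that spread was not tested. Ccnb2, another mitotic cyclin, ranged over 67.8 to 78.6 CPM and passed no test.

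The 2 phosphatases that switch CDK1 on differed between DMSO-treated c-Fos cells and empty-vector cells in opposite directions. Cdc25b had 148 and 137 CPM with afatinib, 129 and 134 CPM with UO126, 136 and 132 CPM with DMSO, and 107 and 112 CPM in empty-vector cells. Every c-Fos library exceeded both empty-vector libraries. The log2 fold changes against empty vector were 0.37 ± 0.065 (adjusted p = 0.00039) with afatinib, 0.26 ± 0.066 (adjusted p = 0.0067) with UO126 and 0.29 ± 0.066 (adjusted p = 0.003) with DMSO. Cdc25c had 43.7 and 44.4 CPM with afatinib, 45.7 and 46.3 CPM with UO126, 39.5 and 35.2 CPM with DMSO, and 43.1 and 45.4 CPM in empty-vector cells, and the DMSO libraries were the lowest. Its log2 fold change was 0.24 ± 0.077 (adjusted p = 0.025) with afatinib and 0.30 ± 0.077 (adjusted p = 0.011) with UO126, both against DMSO, and -0.24 ± 0.077 (adjusted p = 0.021) with DMSO against empty vector. The Cdc25b calls held under all alternatives, and each call of Cdk1, Ccna2 and Cdc25c was lost when at least 1 library was left out.

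Of the 3 mitotic kinases, Nek2, which separates centrosomes, differed with both inhibitors. Nek2 had 124 and 124 CPM with afatinib, 117 and 119.9 CPM with UO126, 95.4 and 100.1 CPM with DMSO, and 90.6 and 96.2 CPM in empty-vector cells. All inhibitor libraries lay above all DMSO and empty-vector libraries, which overlapped one another. The log2 fold change against DMSO was 0.34 ± 0.064 (adjusted p = 0.00079) with afatinib and 0.28 ± 0.064 (adjusted p = 0.0058) with UO126, of which the UO126 call was lost without DMSO replicate 1. Aurka, the spindle-pole Aurora kinase, had 159.7 and 152 CPM with afatinib, 158 and 160.2 CPM with UO126, 149 and 164 CPM with DMSO, and 136 and 139.5 CPM in empty-vector cells. Every c-Fos library was above both empty-vector libraries, at a log2 fold change of 0.18 ± 0.066 (adjusted p = 0.042) with afatinib, 0.21 ± 0.065 (adjusted p = 0.023) with UO126 and 0.18 ± 0.066 (adjusted p = 0.04) with DMSO. Plk1, the Polo kinase that works from mitotic entry to cytokinesis, had 147 and 136 CPM with afatinib, 136 and 155 CPM with UO126, 147 and 149 CPM with DMSO, and 139 and 147 CPM in empty-vector cells. The afatinib libraries lay just below the DMSO libraries, every other pair of groups overlapped, and Plk1 was called in no comparison. Each Aurka call was lost when either empty-vector library was left out. In all, that with DMSO was lost under 8 of 16 alternatives and that with afatinib under 5.

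The chromosomal passenger complex corrects faulty attachments and triggers cytokinesis, and its 4 subunits did not move as one. Incenp, the scaffold, had 171 and 158 CPM with afatinib, 164 and 176 CPM with UO126, 209.8 and 212 CPM with DMSO, and 238 and 241 CPM in empty-vector cells. The inhibitor libraries were the lowest and the empty-vector libraries the highest, with no overlap between DMSO and either. Incenp gave log2 fold changes of -0.36 ± 0.064 (adjusted p = 0.00057) with afatinib against DMSO, -0.31 ± 0.064 (adjusted p = 0.0028) with UO126 against DMSO and -0.18 ± 0.064 (adjusted p = 0.035) with DMSO against empty vector. The call with DMSO against empty vector was lost under 6 of 16 alternatives: without any 1 of the 4 libraries compared, with DESeq2's Wald test and with a replicate block. Birc5, the survivin subunit, had 166 and 160.3 CPM with afatinib, 167 and 173 CPM with UO126, 184 and 194 CPM with DMSO, and 148 and 161 CPM in empty-vector cells. Birc5 was highest in the DMSO libraries, 0.29 ± 0.065 (adjusted p = 0.0028) against empty vector, and was lower with afatinib than with DMSO at a log2 fold change of -0.21 ± 0.065 (adjusted p = 0.018), a call lost without either afatinib library or DMSO replicate 2. Cdca8, the borealin subunit, had 128 and 114 CPM with afatinib, 131 and 137 CPM with UO126, 133 and 146 CPM with DMSO, and 115 and 127 CPM in empty-vector cells. Its log2 fold change was -0.21 ± 0.079 (adjusted p = 0.046) with afatinib against DMSO and 0.21 ± 0.079 (adjusted p = 0.049) with DMSO against empty vector, and both calls were lost under several alternatives. Aurkb, the kinase of the complex, had 104 and 93.5 CPM with afatinib, 101 and 109.6 CPM with UO126, 105 and 104 CPM with DMSO, and 104 and 107 CPM in empty-vector cells, and all its groups overlapped.

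Among 5 genes of the spindle assembly checkpoint, Mad2l1 was the one that passed a test. Mad2l1, which forms the inhibitor of Cdc20, had 96.2 and 97.3 CPM with afatinib, 109 and 94.9 CPM with UO126, 109 and 119 CPM with DMSO, and 117 and 119 CPM in empty-vector cells. The afatinib libraries lay below all DMSO and empty-vector libraries, at a log2 fold change of -0.24 ± 0.075 (adjusted p = 0.021) against DMSO and -0.28 ± 0.075 (adjusted p = 0.007) against empty vector. Both calls were lost without either afatinib library. The call against DMSO was also lost without DMSO replicate 2, and that against empty vector without either empty-vector library. Bub1 ranged over 91.4 to 112 CPM, Bub1b over 148 to 168 CPM, Bub3 over 134 to 152 CPM and the checkpoint kinase Ttk over 40.4 to 46.4 CPM, and none was called in any of the 6 comparisons.

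No gene of the 4 that work with or are substrates of the anaphase-promoting complex was called with either inhibitor against DMSO. This held by edgeR and by DESeq2's Wald test, and 0 had an unadjusted p under 0.05. Of all genes, edgeR called 21.2% higher and 21.5% lower with afatinib, and 13.9% and 14.7% with UO126. At those shares, 4 genes are too few to set this role apart. Ube2c, the ubiquitin-conjugating enzyme of the complex, had 208 and 190.0 CPM with afatinib, 201 and 205 CPM with UO126, 197 and 223 CPM with DMSO, and 169.6 and 183 CPM in empty-vector cells. All c-Fos libraries exceeded both empty-vector libraries, at a log2 fold change of 0.20 ± 0.074 (adjusted p = 0.044) with UO126 and 0.25 ± 0.074 (adjusted p = 0.015) with DMSO. Cdca3, which promotes the loss of the WEE1 kinase, had 152 and 147 CPM with afatinib, 159 and 161 CPM with UO126, 146 and 154 CPM with DMSO, and 177 and 188 CPM in empty-vector cells. Here all c-Fos libraries lay below both empty-vector libraries, at a log2 fold change of -0.29 ± 0.062 (adjusted p = 0.0019) with afatinib and -0.28 ± 0.062 (adjusted p = 0.0027) with DMSO. Cdc20, the activator that starts anaphase, had 142 and 136 CPM with afatinib, 137 and 153 CPM with UO126, 145 and 144 CPM with DMSO, and 142 and 153 CPM in empty-vector cells. The afatinib libraries lay just below the DMSO and empty-vector libraries, the other groups overlapped, and Cdc20 was called in no comparison. Securin, Pttg1, ranged over 32.2 to 37.2 CPM. Each of the Ube2c and Cdca3 calls was lost when at least 1 library was left out.

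In the centromere and kinetochore group (7 genes), Cenpf differed most. Cenpf, a large protein of the outer kinetochore and the nuclear envelope, had 436 and 485 CPM with afatinib, 419 and 388 CPM with UO126, 325 and 288 CPM with DMSO, and 419 and 388 CPM in empty-vector cells. Both DMSO libraries lay below all others. The log2 fold change was 0.59 ± 0.076 (adjusted p = 4.1e-05) with afatinib and 0.40 ± 0.076 (adjusted p = 0.0017) with UO126, both against DMSO, and -0.40 ± 0.076 (adjusted p = 0.00097) with DMSO against empty vector. Cenpe, the kinetochore motor that moves chromosomes to the spindle equator, had 239 and 263 CPM with afatinib, 279.8 and 256 CPM with UO126, 229 and 213 CPM with DMSO, and 246 and 232 CPM in empty-vector cells. The UO126 libraries were above the DMSO libraries, at a log2 fold change of 0.28 ± 0.071 (adjusted p = 0.01), a call lost without DMSO replicate 2. Cenpa, the histone variant that marks the centromere, had 148 and 148 CPM with afatinib, 138 and 143 CPM with UO126, 135 and 138 CPM with DMSO, and 131 and 139 CPM in empty-vector cells and was not called in any comparison.

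Spc24 and Spc25, which pair in the NDC80 complex that grips microtubules, differed from empty vector in opposite directions. Spc24 had 25.3 and 24.5 CPM with afatinib, 27.2 and 29.4 CPM with UO126, 25.5 and 28.2 CPM with DMSO, and 20.3 and 23.5 CPM in empty-vector cells. Its c-Fos libraries all lay above both empty-vector libraries, at a log2 fold change of 0.37 ± 0.094 (adjusted p = 0.0069) with UO126 and 0.29 ± 0.096 (adjusted p = 0.025) with DMSO. Spc25 had 34.6 and 36.2 CPM with afatinib, 40.8 and 37.6 CPM with UO126, 33.2 and 35.5 CPM with DMSO, and 43.7 and 43.1 CPM in empty-vector cells. Its c-Fos libraries all lay below, at a log2 fold change of -0.29 ± 0.076 (adjusted p = 0.0063) with afatinib and -0.34 ± 0.077 (adjusted p = 0.0032) with DMSO. Both Spc24 calls were lost without empty-vector replicate 1, and that with DMSO also without DMSO replicate 2 and with DESeq2's Wald test. The Spc25 call with DMSO was lost without DMSO replicate 1, and that with afatinib without afatinib replicate 1 or empty-vector replicate 1. The other 2 subunits, Ndc80 at 67.5 to 81.8 CPM and Nuf2 at 79.7 to 95.8 CPM, passed no test.

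Kinesin motors were the largest role, with 10 genes, and moved in both directions. Kif11, the motor that pushes spindle poles apart, had 292 and 309 CPM with afatinib, 262 and 246 CPM with UO126, 206 and 208 CPM with DMSO, and 266 and 262 CPM in empty-vector cells. The afatinib libraries were the highest and the DMSO libraries the lowest, with no overlap between either and any other group. Kif11 gave log2 fold changes of 0.54 ± 0.061 (adjusted p = 1.3e-05) with afatinib and 0.29 ± 0.061 (adjusted p = 0.0029) with UO126, both against DMSO, and -0.35 ± 0.061 (adjusted p = 0.00048) with DMSO against empty vector. Kif14, a motor of cytokinesis, had 78.6 and 78.2 CPM with afatinib, 72.4 and 71.9 CPM with UO126, 66.4 and 61.5 CPM with DMSO, and 76.1 and 77.7 CPM in empty-vector cells. Its DMSO libraries were again the lowest, -0.27 ± 0.066 (adjusted p = 0.0054) against empty vector, a call lost without DMSO replicate 2, and afatinib was higher than DMSO at a log2 fold change of 0.29 ± 0.066 (adjusted p = 0.0029). Kif20a, which carries passenger proteins to the midzone, had 390.4 and 382 CPM with afatinib, 365 and 370.3 CPM with UO126, 339.6 and 343 CPM with DMSO, and 389 and 400.3 CPM in empty-vector cells. Its DMSO libraries were lowest too, with 0.18 ± 0.056 (adjusted p = 0.02) for afatinib against DMSO and -0.21 ± 0.056 (adjusted p = 0.0083) for DMSO against empty vector. Both calls were lost without either DMSO library. The afatinib call was also lost without afatinib replicate 1, and the other without either empty-vector library.

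Kif4, a chromosome-arm motor that also works in the midzone, had 90.4 and 87.6 CPM with afatinib, 94.8 and 93.6 CPM with UO126, 93.8 and 89.3 CPM with DMSO, and 71.8 and 71.9 CPM in empty-vector cells. All 6 c-Fos libraries lay above both empty-vector libraries, at a log2 fold change of 0.31 ± 0.063 (adjusted p = 0.0013) with afatinib, 0.39 ± 0.063 (adjusted p = 0.00026) with UO126 and 0.35 ± 0.064 (adjusted p = 0.00063) with DMSO, and these calls held under all alternatives. Kif15, a motor that can back up Kif11, had 24.9 and 28.1 CPM with afatinib, 31.4 and 31.5 CPM with UO126, 34.0 and 29.7 CPM with DMSO, and 37.2 and 37.0 CPM in empty-vector cells. It was lowest with afatinib and highest in empty-vector cells, with -0.26 ± 0.091 (adjusted p = 0.032) for afatinib against DMSO and -0.48 ± 0.088 (adjusted p = 0.00058) for afatinib against empty vector, and the call against DMSO was lost under 5 alternatives. Kif20b, a motor that works late in cytokinesis, had 153 and 166 CPM with afatinib, 164 and 136 CPM with UO126, 149.7 and 137 CPM with DMSO, and 186 and 180.0 CPM in empty-vector cells. Its c-Fos libraries all lay below the empty-vector libraries, at a log2 fold change of -0.29 ± 0.085 (adjusted p = 0.016) with UO126 and -0.35 ± 0.085 (adjusted p = 0.0049) with DMSO. Both calls were lost without empty-vector replicate 1. The UO126 call was also lost without empty-vector replicate 2 or UO126 replicate 2, and the DMSO call without DMSO replicate 2. Kif2c, a microtubule depolymerase, was higher with UO126 than with DMSO at a log2 fold change of 0.20 ± 0.068 (adjusted p = 0.041), and Kif22, a chromosome-arm motor, was lower with afatinib than with empty vector at a log2 fold change of -0.22 ± 0.077 (adjusted p = 0.03), both lost under several alternatives. Kif18a at 30.8 to 43.8 CPM and Kif23 at 108 to 126 CPM were called in no comparison.

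**Figure D3:**
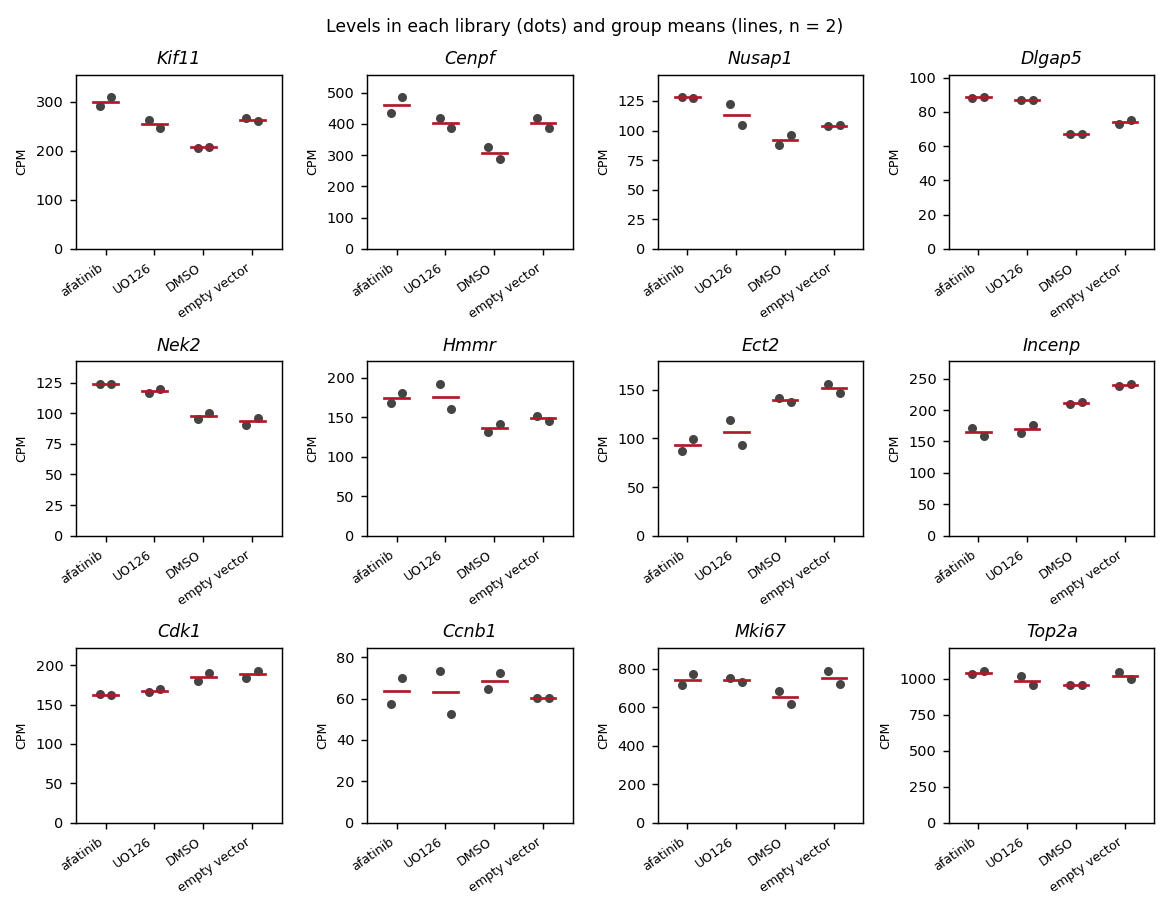
CPM in each library (dots) and group means (lines) for 12 of the genes, each on its own axis from 0; all groups but the empty vector carry c-Fos. Kif11, Cenpf, Nusap1, Dlgap5, Nek2 and Hmmr have both inhibitor groups above DMSO, Ect2 and Incenp have them below, and the Ccnb1 dots overlap in every pair of groups but DMSO and empty vector.

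Among 6 spindle and microtubule-binding proteins, Prc1, Hmmr, Nusap1 and Dlgap5 were called higher with afatinib and higher with UO126, both against the same DMSO libraries. None was called lower. Of all genes, 21.2% were called higher with afatinib and 13.9% with UO126, and 21.5% and 14.7% lower. Nusap1, which bundles microtubules near chromosomes, had 128 and 128 CPM with afatinib, 122 and 105 CPM with UO126, 87.8 and 96.6 CPM with DMSO, and 104 and 104 CPM in empty-vector cells. Both inhibitor groups lay above the DMSO libraries, at a log2 fold change of 0.47 ± 0.079 (adjusted p = 0.00031) with afatinib and 0.30 ± 0.079 (adjusted p = 0.012) with UO126. Dlgap5, a stabiliser of the fibres that pull chromosomes, had 88.3 and 88.5 CPM with afatinib, 86.7 and 86.8 CPM with UO126, 67.3 and 67.0 CPM with DMSO, and 72.9 and 75.5 CPM in empty-vector cells. The 2 libraries of each c-Fos group were nearly equal, and the log2 fold change was 0.40 ± 0.063 (adjusted p = 0.00021) with afatinib and 0.37 ± 0.063 (adjusted p = 0.00071) with UO126.

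Hmmr, a spindle-pole adaptor that also binds hyaluronan, had 169 and 181 CPM with afatinib, 192 and 160.2 CPM with UO126, 131 and 141 CPM with DMSO, and 152 and 146 CPM in empty-vector cells. All inhibitor libraries were above all DMSO and empty-vector libraries, and the log2 fold change against DMSO was 0.36 ± 0.084 (adjusted p = 0.0035) with afatinib and 0.37 ± 0.084 (adjusted p = 0.005) with UO126. Prc1, which crosslinks microtubules in the central spindle, had 284 and 294 CPM with afatinib, 287 and 276 CPM with UO126, 249 and 249 CPM with DMSO, and 232 and 232 CPM in empty-vector cells. Its log2 fold change was 0.22 ± 0.057 (adjusted p = 0.0079) with afatinib and 0.18 ± 0.057 (adjusted p = 0.03) with UO126 against DMSO, and 0.32 ± 0.057 (adjusted p = 0.00052) with afatinib and 0.28 ± 0.057 (adjusted p = 0.0016) with UO126 against empty vector. The UO126 calls against DMSO of Hmmr, Nusap1 and Prc1 were lost without DMSO replicate 1, and that of Prc1 under 5 of 16 alternatives in all. Tpx2, the activator of Aurora A on the spindle, ranged over 242 to 254 CPM and Ckap2 over 137 to 165 CPM, and neither was called in any comparison.

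Ect2 had the largest fall with afatinib among the 51 genes. Ect2, the exchange factor that activates RhoA for the cleavage furrow, had 86.7 and 99.8 CPM with afatinib, 119 and 93.7 CPM with UO126, 141 and 137 CPM with DMSO, and 156 and 147 CPM in empty-vector cells. All inhibitor libraries lay below all others, and the 2 UO126 libraries were far apart. The log2 fold change was -0.58 ± 0.10 (adjusted p = 0.0012) with afatinib and -0.39 ± 0.10 (adjusted p = 0.017) with UO126 against DMSO, and -0.70 ± 0.10 (adjusted p = 0.00027) with afatinib and -0.51 ± 0.10 (adjusted p = 0.0026) with UO126 against empty vector. The UO126 call against DMSO was lost without either DMSO library. Anln, the anillin scaffold of the contractile ring, had 513 and 566 CPM with afatinib, 548 and 505 CPM with UO126, 549 and 541 CPM with DMSO, and 447 and 424 CPM in empty-vector cells. Anln was higher in all c-Fos libraries than in empty-vector libraries, at a log2 fold change of 0.31 ± 0.067 (adjusted p = 0.0019) with afatinib, 0.27 ± 0.067 (adjusted p = 0.0053) with UO126 and 0.32 ± 0.067 (adjusted p = 0.0016) with DMSO, of which the UO126 call was lost without empty-vector replicate 2. Racgap1, the partner of Ect2 in the midzone, ranged over 207 to 229.8 CPM and was not called.

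The last 3 genes are general marks of dividing cells. Mki67, which coats mitotic chromosomes, had 716 and 774 CPM with afatinib, 751 and 730.1 CPM with UO126, 687 and 619.8 CPM with DMSO, and 789.5 and 719.9 CPM in empty-vector cells. The DMSO libraries were the lowest, with 0.19 ± 0.07 (adjusted p = 0.043) for afatinib against DMSO and -0.21 ± 0.07 (adjusted p = 0.028) for DMSO against empty vector. Both calls were lost without DMSO replicate 2. The afatinib call was lost under 4 of 16 alternatives in all, and the other also without empty-vector replicate 1. Top2a, the topoisomerase that untangles chromosomes, had 1032 and 1055 CPM with afatinib, 1019 and 956 CPM with UO126, 956 and 955 CPM with DMSO, and 1046 and 997 CPM in empty-vector cells. Top2a was called in no comparison, and its level per kilobase was next to that of Ube2c. Foxm1, the transcription factor of many late cell cycle genes, had 379 and 357 CPM with afatinib, 308 and 332 CPM with UO126, 310.4 and 289.6 CPM with DMSO, and 308 and 309 CPM in empty-vector cells. Both afatinib libraries exceeded all others, and the log2 fold change was 0.30 ± 0.064 (adjusted p = 0.0022) against DMSO and 0.25 ± 0.064 (adjusted p = 0.0056) against empty vector.

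Afatinib was also compared with UO126 directly, at the single dose of each. Kif11 alone was called higher (1 gene, 1.96% of 51, beside 7.14% of all genes) and none lower (0 of 51, beside 7.14% of all genes). Its log2 fold change was 0.24 ± 0.061 (adjusted p = 0.017), and the adjusted p was 0.082 with a fit to the 4 libraries compared, 0.13 without afatinib replicate 2 and 0.052 without UO126 replicate 2, in a range of 0.0036 to 0.13 over all alternatives. At an unadjusted p under 0.05 there were 7 genes (Cenpf, Kif11, Kif15, Kif22, Nusap1, Ckap2 and Foxm1), and DESeq2's Wald test also called 1 higher and 0 lower. All 51 of the 95% intervals of the log2 fold change lay between -0.44 and 0.40, so each excluded a difference of 1.5-fold under a spread shared by all groups. The UO126 libraries lay farther apart over the genes tested than those of any other group, so these intervals may be too narrow. Further genes of the 51 were called when either UO126 library was left out, and the share of all genes called rose too.

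Against empty vector, afatinib-treated c-Fos cells had 11 genes (21.6%) called higher, beside 21.7% of all genes, and 8 (15.7%) called lower, beside 23.4%. The extremes were Nek2, 0.41 ± 0.064 (adjusted p = 0.00016), and Ect2, -0.70 ± 0.10 (adjusted p = 0.00027). UO126-treated c-Fos cells had 10 (19.6%) called higher, beside 18.3% of all genes, and 7 (13.7%) called lower, beside 19.4%. Median log2 fold changes against empty vector were 0.0074 with afatinib and 0.021 with UO126, beside -0.028 and -0.019 for all genes in the same 2 comparisons. The extremes with UO126 were Kif4, 0.39 ± 0.063 (adjusted p = 0.00026), and Ect2, -0.51 ± 0.10 (adjusted p = 0.0026). With each inhibitor, calls among the 51 were lost when a library of either group compared was left out. The share of all genes called fell too, except that the share higher with UO126 rose without either UO126 library. The calls of Cdk1, Cdca3 and Kif15 as lower with UO126 were lost whichever library was left out. No gene of the 51 passed 2-fold in any of the 6 comparisons, and 19 were called in none of them. DMSO had the lowest group mean for 20 of the 51 genes, afatinib for 16, empty vector for 13 and UO126 for 2. Neither this order nor the count of genes called in no comparison was worked out over all genes. Neither is therefore read as particular to the 51.

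A further 108 genes of the same machinery, outside the 51, were read from 5 lists: other kinetochore, anaphase-promoting complex, mitotic entry, condensin and cohesin, and spindle pole genes. With afatinib against DMSO, 16 of 108 (14.8%) were called higher, beside 21.2% of all genes, and 21 (19.4%) lower, beside 21.5%, with a median log2 fold change of -0.068. With UO126 against DMSO, 6 (5.56%) were called higher, beside 13.9%, and 10 (9.26%) lower, beside 14.7% (median -0.017). With DMSO against empty vector, 9 (8.33%) were called higher, beside 21.5%, and 11 (10.2%) lower, beside 20.7% (median -0.035). Each of these shares was below that of all genes. Aspm, a spindle-pole protein, had 169 and 187 CPM with afatinib, 166 and 159 CPM with UO126, 131 and 108 CPM with DMSO, and 148 and 127 CPM in empty-vector cells. It was higher with each inhibitor than with DMSO, at a log2 fold change of 0.57 ± 0.10 (adjusted p = 0.00085) with afatinib and 0.44 ± 0.10 (adjusted p = 0.0074) with UO126. Cdc25a, the phosphatase of CDK2 and CDK1, had 37.7 and 34.1 CPM with afatinib, 46.1 and 47.7 CPM with UO126, 58.7 and 56.9 CPM with DMSO, and 59.7 and 58.1 CPM in empty-vector cells. Its inhibitor libraries lay below all others, at a log2 fold change of -0.69 ± 0.074 (adjusted p = 7.6e-06) with afatinib and -0.30 ± 0.072 (adjusted p = 0.007) with UO126 against DMSO. Fbxo5, an inhibitor of the anaphase-promoting complex, was also lower than with DMSO, at a log2 fold change of -0.51 ± 0.084 (adjusted p = 0.0003) with afatinib and -0.29 ± 0.083 (adjusted p = 0.018) with UO126. Cep55, a protein of abscission, had 52.9 and 61.2 CPM with afatinib, 84.2 and 67.3 CPM with UO126, 77.8 and 86.3 CPM with DMSO, and 92.4 and 92.2 CPM in empty-vector cells, and was lower with afatinib at a log2 fold change of -0.52 ± 0.11 (adjusted p = 0.0024) against DMSO.

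A further list of 24 genes held MuvB, B-Myb, NF-Y and E2F regulators, with Cdkn1a, Cdkn1b and Trp53. Of these 24, 6 (25%) were called higher with afatinib against DMSO, beside 21.2% of all genes, and 9 (37.5%) lower, beside 21.5%. With UO126 against DMSO, 2 (8.33%) were called higher, beside 13.9%, and 6 (25%) lower, beside 14.7%. With DMSO against empty vector, 6 (25%) were called higher, beside 21.5%, and 4 (16.7%) lower, beside 20.7%. Cdkn1a, the CDK inhibitor p21, had 87.5 and 83.8 CPM with afatinib, 74.3 and 74.7 CPM with UO126, 35.4 and 32.8 CPM with DMSO, and 14.8 and 15.2 CPM in empty-vector cells. The 4 groups did not overlap, and the log2 fold change was 1.33 ± 0.071 (adjusted p = 1.6e-08) with afatinib and 1.13 ± 0.071 (adjusted p = 1.8e-07) with UO126 against DMSO, and 1.18 ± 0.08 (adjusted p = 6.8e-08) with DMSO against empty vector. Mybl2, the B-Myb partner of MuvB, had 39.1 and 37.9 CPM with afatinib, 33.9 and 40.9 CPM with UO126, 51.8 and 53.1 CPM with DMSO, and 32.6 and 34.7 CPM in empty-vector cells. Both DMSO libraries were the highest, at a log2 fold change of 0.64 ± 0.089 (adjusted p = 6.9e-05) against empty vector, and Mybl2 was lower with afatinib, -0.45 ± 0.088 (adjusted p = 0.0011), and UO126, -0.49 ± 0.088 (adjusted p = 0.0011), than with DMSO. E2f8, an E2F repressor, had 52.6 and 55.3 CPM with afatinib, 60.7 and 57.0 CPM with UO126, 78.4 and 74.1 CPM with DMSO, and 64.8 and 59.3 CPM in empty-vector cells, with -0.50 ± 0.073 (adjusted p = 0.00011) for afatinib and -0.37 ± 0.073 (adjusted p = 0.0019) for UO126 against DMSO. Rbl2, a pocket protein that joins MuvB in quiescent cells, was higher than with DMSO at a log2 fold change of 0.73 ± 0.075 (adjusted p = 4.9e-06) with afatinib and 0.46 ± 0.075 (adjusted p = 0.00057) with UO126. Trp53 had 93.5 and 83.4 CPM with afatinib and 106 and 118 CPM with UO126. It had 157 and 164 CPM with DMSO and 159 and 167 CPM in empty-vector cells. E2f3 had 38.1 and 39.1 CPM with afatinib and 44.7 and 42.25 CPM with UO126. It had 63.35 and 62.3 CPM with DMSO and 59.7 and 57.5 CPM in empty-vector cells. For both genes, all inhibitor libraries lay below all DMSO and empty-vector libraries.

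Genes of DNA replication and licensing, the earlier step of the cell cycle, were read beside the 51. Of 40 such genes, 0 were called higher with afatinib against DMSO, beside 21.2% of all genes, and 36 (90%) lower, beside 21.5%. With UO126 against DMSO, 0 were called higher, beside 13.9%, and 32 (80%) lower, beside 14.7%. With DMSO against empty vector, 22 (55%) were called higher, beside 21.5%, and 3 (7.5%) lower, beside 20.7%. Their median log2 fold changes were -0.58, -0.40 and 0.21 in those comparisons, beside -0.0020, 0.041 and -0.060 for the 51 mitotic genes, and no test of this difference was made. At an unadjusted p under 0.05, 0 of the 40 were higher with either inhibitor than with DMSO, and DESeq2's Wald test called 0 higher in both. Cdc6, which loads the replicative helicase, had 12.4 and 10.9 CPM with afatinib, 19.7 and 19.6 CPM with UO126, 44.5 and 40.9 CPM with DMSO, and 34.3 and 36.6 CPM in empty-vector cells. Its log2 fold change was -1.88 ± 0.094 (adjusted p = 9.2e-09) with afatinib and -1.12 ± 0.088 (adjusted p = 1.1e-06) with UO126 against DMSO. Cdt1, which works with Cdc6, had 42.7 and 39.7 CPM with afatinib, 53.7 and 61.4 CPM with UO126, 114 and 106 CPM with DMSO, and 73.1 and 72.6 CPM in empty-vector cells. Tk1, the thymidine kinase, had 28.3 and 26.6 CPM with afatinib, 35.7 and 40.2 CPM with UO126, 82.3 and 87.4 CPM with DMSO, and 81.1 and 85.7 CPM in empty-vector cells. For all 3 of these genes the afatinib libraries were the lowest and the UO126 libraries next, with no overlap between the inhibitor groups and the others.

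**Figure D4:**
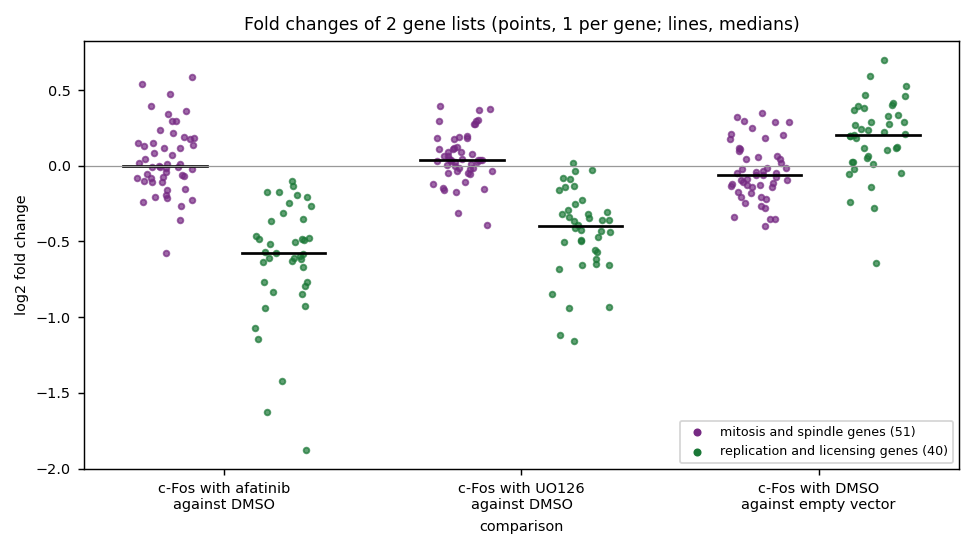
Log2 fold change of each of the 51 mitosis and spindle genes (purple) and each of 40 replication and licensing genes (green) in 3 comparisons that share the DMSO libraries, with list medians as black lines. The purple points lie around 0 in each, while the green medians are -0.58 with afatinib, -0.40 with UO126, both against DMSO, and 0.21 with DMSO against empty vector.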

How the data were processed

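Libraries made with a TruSeq RNA kit, without strand information, were sequenced from 8 samples in 4 groups of 2, and reads of overlapping genes cannot be told apart. The authors deposited 1 table of estimated counts (expected counts) per symbol, made at the isoform level; TopHat, HOMER, DESeq2 and build mm9 are named in the submitters' processing notes, without versions. The deposited values are multiples of 0.5 and 47.9% to 49.5% of those above 0 are not whole, so they were rounded to whole numbers. The gene length is that of the deposited table. Of 24909 entries, 26 with symbols turned into dates were dropped, and 24883 were used. No column of per-sample values went unused.

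Genes passing filterByExpr (count of 10, total of 15) numbered 12879, with all 51 members among them. edgeR 4.0.16 (R 4.3.3) fitted all 8 libraries with TMM scaling, robust quasi-likelihood dispersions and group as the only term (4 residual degrees of freedom), and p-values were adjusted by Benjamini-Hochberg over all genes tested. Each gene's spread was thus shared by all groups, although the 2 libraries of a group were not equally close. Over the genes tested, the chi-square per degree of freedom between them was 4.95 in empty-vector cells and 8.69 with DMSO. It was 9.37 with afatinib and 25.9 with UO126. P-values may thus be too small and intervals too narrow in comparisons with UO126, and the reverse in the others. Rn45s was among the genes tested and took 1.62% and 3.55% of the counts in the UO126 libraries. Its part in these chi-square values was not worked out. The lowest count of a member in any library was 469. Alternatives were DESeq2 1.42.0 (size factors, Wald test), other filters, fewer libraries, a replicate block, no robust estimation, no Rn45s, and each library left out. The fit was also run on simulated data, but no outcome of that run is given here and no result above rests on it. Members, roles and gene lists were chosen with earlier results of these data known. Values are given for members called and among the 6 largest changes of a comparison, and for 10 core members whatever their change. They are also given for some, not all, of the largest called genes of the other lists. No gene of the other kinetochore list or of the condensin and cohesin list is named. Further called members are given by role.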

Additional observations from a re-analysis of the deposited data

How the results depend on the processing

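Fold changes of the named called genes were recomputed under 16 alternatives: of 3344 values, 2979 kept direction and call, 365 lost the call and 0 reversed. No scaling moved the median of all genes by 0.1 on the log2 scale. Counts of called members and their median log2 fold change moved as follows, and the cause was not tested beyond the loss of samples. With DESeq2's size factors the medians were -0.048 (DMSO against empty vector), 0.026 (afatinib against empty vector) and 0.034 (UO126 against empty vector). There, 2 members were higher with afatinib than with UO126, beside 7.45% of all genes. In all, 4 members were lower with UO126 than with empty vector, beside 18.2% of all genes, since the calls of Cdk1, Mad2l1 and Kif15 were lost. DESeq2's Wald test gave the same 3 medians (-0.048, 0.026 and 0.034). It called 5 members higher with DMSO than with empty vector, beside 18.6% of all genes, and 3 lower with UO126 than with empty vector, beside 13.4%. With at least 5 CPM in 2 libraries the medians were -0.073 (DMSO against empty vector) and 0.052 (UO126 against DMSO). Then 2 members were higher with afatinib than with UO126, beside 8.63% of all genes, against 3 with no filter, beside 7.09%. Fits to only the libraries compared gave 0 members higher with afatinib than with UO126, beside 3.81% of all genes. They gave 3 lower with UO126 than with empty vector, beside 15.8%, and medians of 0.033 (afatinib) and 0.035 (UO126) against empty vector. Same-numbered libraries did not deviate together (correlations of -0.19 to 0.11), so the values gave no sign of pairing by number. Whether the libraries were handled in pairs cannot be told from this. A replicate block left 3 members lower with UO126 than with empty vector, beside 17.5% of all genes, and kept the other counts within 1.5 times. A crossed replicate block of the afatinib and UO126 libraries, chosen after seeing the data, called 4 members higher and 5 lower. The share of all genes called with that block was not worked out, so these counts are not read as particular to the members. With 1 library left out, the lone library of its group is assumed to vary like the other groups. Members higher and lower were then 4 to 9 and 4 to 12 for DMSO against empty vector (median -0.079 to -0.016), 9 to 17 and 3 to 9 for afatinib against DMSO (median 0 to 0.056), and 6 to 12 and 1 to 5 for UO126 against DMSO (median 0.029 to 0.057). They were 0 to 4 and 0 to 3 for afatinib against UO126 (median -0.033 to 0.021), 8 to 16 and 4 to 9 for afatinib against empty vector (median 0.030 to 0.054), and 5 to 15 and 2 to 6 for UO126 against empty vector (median 0.025 to 0.061). With all libraries the median was -0.0020 for afatinib against DMSO and -0.032 for afatinib against UO126; the second was 0.021 without UO126 replicate 1.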
